A study of Mus musculus with 38 samples.

Results

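FGF23 is a bone hormone that makes the kidney excrete phosphate. It binds fibroblast growth factor receptors together with the co-receptor Klotho, which is abundant in the distal tubule, and signals through the ERK branch of the MAPK pathway. In the proximal tubule it is known for removing sodium-phosphate cotransporters from the brush border, lowering the 1-alpha-hydroxylase that makes active vitamin D and raising the 24-hydroxylase that degrades it. In the distal tubule it is known for promoting calcium and sodium reabsorption.

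The comparison described here asked what 6 days of FGF23 did to the transcriptome of a kidney without disease. It rests on 7 of the 38 libraries of the series. The healthy groups are vehicle-treated mice NTS1, NTS2, NTS3 and NTS4 (n = 4) and FGF23-treated mice NTS9, NTS10 and NTS11 (n = 3). All were male C57BL/6 mice (strain label C57BL/6JRj) aged 10 weeks, and in place of nephrotoxic serum they were given phosphate-buffered saline. Whether they also received the immunization that preceded the serum is not given in the sources used here. Recombinant human FGF23 was injected intravenously once a day at 1 µg over 6 days, and the controls received the albumin-containing saline that carried it. Tissue was collected 24 h after the last injection, and a fragment of the middle part of the kidney was used for RNA. Set beside them are 7 mice of the same strain with anti-GBM glomerulonephritis, induced by nephrotoxic serum against the glomerular basement membrane. They were given the same FGF23 (n = 3) or vehicle (n = 4). A further 8 healthy female BALB/c mice were examined 24 h after a single injection of 1 µg FGF23 (n = 4) or vehicle (n = 4). The fit of the BALB/c experiment also held female mice with Adriamycin nephropathy, given a single injection of FGF23 (n = 4) or vehicle (n = 4). The anti-GBM, BALB/c and Adriamycin mice were also aged 10 weeks.

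The healthy libraries held 14791028 to 23630210 counted reads. Expression is given below as CPM (reads of a gene per 1e+06 reads of the library) after TMM scaling, in the order NTS1, NTS2, NTS3, NTS4 for vehicle and NTS9, NTS10, NTS11 for FGF23. A log2 fold change is FGF23 against vehicle, with its 95% confidence interval from edgeR's quasi-likelihood fit of the 14 libraries of the experiment. Correlations of log2 CPM between libraries ranged from 0.981 to 0.990 within the treatment groups and from 0.977 to 0.991 between them. A principal component analysis of the healthy libraries did not separate the treatments on its first component, which held 42.3% of the variance and ran from -28.1 in NTS3 to 27.3 in NTS10.

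No gene changed with FGF23 past the threshold. At an adjusted p below 0.05, edgeR called 0 of 15859 genes (0%), and the smallest adjusted p was 0.996. DESeq2 also called 0, with a smallest adjusted p of 0.0736. At an unadjusted p below 0.05, edgeR counted 284 genes higher with FGF23 (1.79% of those tested) and 405 lower (2.55%), together 689 (4.34%). With RLE in place of TMM scaling the split was 348 higher and 298 lower, so that the side with more genes depends on the scaling. In a fit of only the 7 healthy libraries, without the anti-GBM mice, it was 401 higher and 577 lower. The treatment groups did not overlap in CPM for 364 genes that were higher (2.30%) and 795 that were lower (5.01%), and the log2 fold change was above 0 for 46.0% of all genes. The data bounded most genes closely. For 13287 genes (83.8%) the 95% interval lay between -1 and 1 on the log2 scale, and the median half-width of the interval was 0.31.

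**Figure D1:**
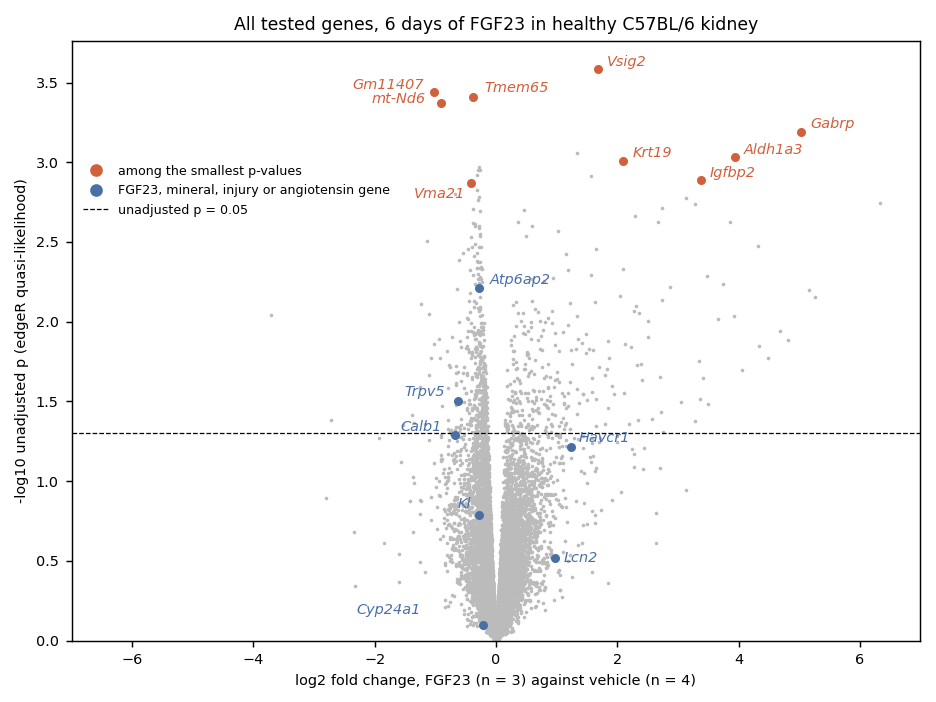
Log2 fold change (x axis) against -log10 unadjusted p (y axis) for the 15859 genes tested in healthy C57BL/6 kidney, 3 FGF23-treated against 4 vehicle-treated mice. Genes with the smallest p-values are orange and selected pathway genes blue, and none of the points passed an adjusted p of 0.05.

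Cell type markers differed between mice, and some of them differed along the treatment. Markers of the inner medulla and urothelium, the lining of the renal pelvis, averaged 0.31, -0.90, -1.52 and -1.13 log2 CPM in the vehicle-treated mice and -1.30, 2.95 and 2.28 in the FGF23-treated mice. NTS10 and NTS11 were thus above every control, whereas NTS9 lay among them. Of the 5 markers tested in this list, 4 were higher at an unadjusted p below 0.05 (1.79% of all genes were higher at that threshold). These 4 were at low CPM and all highest in NTS10 and NTS11, so they are not separate observations. The summed level of all 5 was 2.40 to 27.9 CPM with vehicle and 10.3 to 113 CPM with FGF23. Most of that sum was the fifth marker, Aqp4, a water channel also of collecting duct principal cells, which missed that threshold and was at 1.398 to 25.7 CPM with vehicle and 9.76 to 96.5 CPM with FGF23. The urothelial keratin Krt5 was at 0.170, 0.238, 0 and 0 CPM with vehicle and at 0, 4.09 and 3.69 CPM with FGF23. The uroplakin Upk1b was at 0.905, 0.190, 0.849 and 0.464 CPM with vehicle and at 0.516, 4.86 and 3.41 CPM with FGF23.

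Markers of the thin limb of Henle were high in NTS1, NTS10 and NTS11. Their means were 5.36, 2.75, 2.27 and 2.09 log2 CPM with vehicle and 3.11, 5.09 and 4.44 with FGF23. Adipocyte markers varied between mice of both groups without following the treatment, at -1.04, 3.42, 4.80 and -1.22 log2 CPM with vehicle and 5.09, 1.12 and 0.24 with FGF23, and the fat-cell hormone Adipoq ranged from 0 to 17.2 CPM with vehicle and from 0.0697 to 26.5 CPM with FGF23. The 5 smooth muscle markers were the only one of 21 marker lists whose mean did not overlap between groups. Their means were 3.66 to 3.83 log2 CPM with vehicle and 3.99 to 4.33 with FGF23. Over single genes, 2.30% were higher and 5.01% lower without overlap, so 1 list of 21 does not stand out by its number. Proximal tubule, thick ascending limb, podocyte, endothelial, macrophage, lymphocyte and neutrophil markers overlapped, as did the remaining lists. In bulk tissue, fewer cells of a type and less RNA per cell cannot be told apart. The share of reads from mitochondrially encoded genes was 11.1% to 12.03% with vehicle and 9.68% to 10.7% with FGF23, and did not overlap either.

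**Figure D2:**
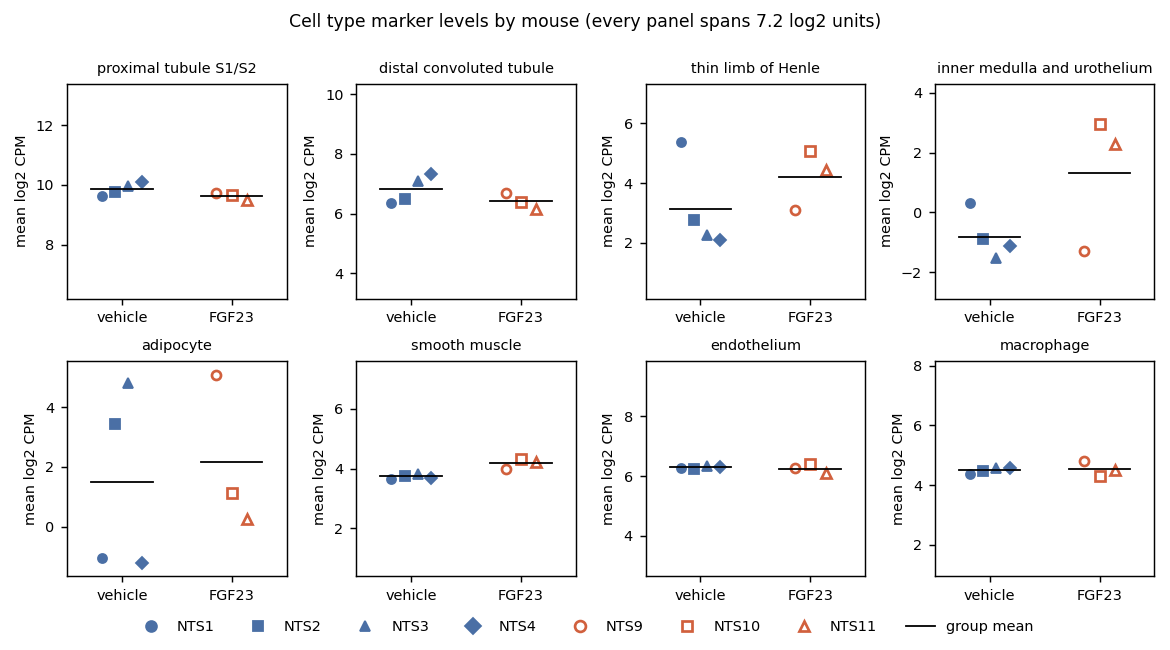
Mean log2 CPM of the markers of 8 cell types (y axis) in each healthy mouse, with the group mean as a line and the same height of scale in every panel. NTS10 and NTS11 are the highest mice for inner medulla and urothelium markers, adipocyte markers scatter within both groups, and the mean of the smooth muscle markers is higher in all 3 FGF23-treated mice.

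The receptors of FGF23 were expressed at similar levels with and without the hormone. Kl, which encodes Klotho and lies at chr5:150952607-150993817 on the plus strand of GRCm38, was at 968, 1106, 1388 and 1391 CPM with vehicle and at 1111, 962 and 928 CPM with FGF23. The groups overlapped, with a log2 fold change of -0.28 (95% interval -0.69 to 0.13). With the inner medulla and urothelium markers as a covariate it was -0.04. That covariate was chosen after seeing the data and itself differed along the treatment. Values with it, here and below, are therefore a description, and the part of the tissue mix was not tested. Fgfr1, the receptor most often paired with Klotho, was nearly constant, at 78.4, 72.6, 78.7 and 76.6 CPM with vehicle and at 75.5, 78.1 and 79.2 CPM with FGF23 (log2 fold change 0.02, -0.11 to 0.15). Fgfr3 differed by 0.20 (-0.06 to 0.46) and Fgfr4, the receptor of Klotho-independent FGF23 signalling in other organs, by 0.07 (-0.20 to 0.34). Fgfr2 was higher in NTS10, at 35.2 CPM, than in any other mouse, where it was 17.4 to 23.7 CPM (log2 fold change 0.39, -0.01 to 0.78). All 14 tested genes of the receptor and co-receptor list had an interval between -1 and 1. Of these, 8 were higher and 6 lower, with a median log2 fold change of 0.01 beside -0.01 over all genes, and 0 had an unadjusted p below 0.05.

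MAPK target genes gave no common direction. The immediate-early gene Egr1 was at 37.9, 4.75, 25.0 and 44.3 CPM with vehicle and at 12.02, 20.3 and 54.1 CPM with FGF23. Its highest and lowest mice differed several times over within each group, so its interval of -1.26 to 1.32 around 0.03 was wide. Dusp6, a phosphatase that ERK signalling induces and that inactivates ERK, was at 42.4, 34.5, 47.2 and 59.0 CPM with vehicle and at 40.04, 33.3 and 39.1 CPM with FGF23 (log2 fold change -0.29, -0.62 to 0.05). Spry4, another feedback inhibitor, differed by 0.19 (-0.12 to 0.51), Spred1 by -0.22 (-0.46 to 0.01) and Myc by 0.53 (-0.28 to 1.34). Of the 30 genes of the MAPK list, 17 were higher and 13 lower with a median of 0.04, and 0 had an unadjusted p below 0.05. The tissue was taken 24 h after the last injection.

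The enzymes of vitamin D metabolism were dominated by differences between mice. Cyp24a1, the 24-hydroxylase (chr2:170482708-170497145, minus strand), was at 44.8, 29.2, 63.6 and 169 CPM with vehicle and at 134, 17.02 and 45.6 CPM with FGF23. Within each group the highest mouse was several times above the lowest, and the log2 fold change was -0.22 with an interval of -1.98 to 1.54. Without NTS4 it was 0.53, and without NTS10 0.24, so its sign rests on single mice. Cyp27b1, the 1-alpha-hydroxylase (chr10:127048250-127053006, plus strand), was at 4.75, 6.08, 3.94 and 20.7 CPM with vehicle and at 10.3, 6.73 and 6.13 CPM with FGF23. NTS4 was the highest mouse for both enzymes and NTS9 the next. The log2 fold change of Cyp27b1 was -0.16 (-1.19 to 0.86), and without NTS4 it was 0.67. The interval of Cyp24a1 includes a change by 1 log2 unit in either direction, and that of Cyp27b1 includes such a change downward.

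The vitamin D receptor gene Vdr was at 353, 359, 376 and 450 CPM with vehicle and at 388, 315 and 394 CPM with FGF23 (-0.07, -0.38 to 0.24), and its sign turned without NTS4 (0.03) or NTS10 (0.02). Of the 13 tested genes of the vitamin D list, 12 were lower and 1 was higher, with a median of -0.21. Dab2, an adaptor of megalin-mediated uptake, was its only member with an unadjusted p below 0.05 (2.55% of all genes were lower at that threshold). It was at 627, 733, 744 and 756 CPM with vehicle and at 642, 597 and 550 CPM with FGF23 (log2 fold change -0.26, -0.47 to -0.05, unadjusted p = 0.0182). The list did not keep its median in other fits. It was -0.02 with the inner medulla and urothelium covariate and -0.03 without NTS4.

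Phosphate transporters were close to their control levels. Slc34a1, the main sodium-phosphate cotransporter of the proximal tubule (chr13:55398187-55415592, plus strand), was at 6837, 6797, 8810 and 7485 CPM with vehicle and at 7405, 6856 and 6176 CPM with FGF23. Its log2 fold change was -0.14 (-0.54 to 0.27), and its sign turned with the inner medulla and urothelium covariate (0.06). Slc34a3, the second renal cotransporter of this family, was at 69.2, 60.4, 72.0 and 99.5 CPM with vehicle and at 69.3, 60.8 and 52.5 CPM with FGF23 (-0.30, -0.69 to 0.09). Slc20a2, a cotransporter of another family, differed by 0.04 (-0.13 to 0.21) and Pth1r, the receptor of parathyroid hormone, by 0.03 (-0.23 to 0.28). Of the 19 tested genes of the phosphate list, 7 were higher and 12 lower with a median of -0.04, and 18 had an interval between -1 and 1. FGF23 acts on these transporters in part by removing the protein from the membrane, which transcript counts do not measure.

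**Figure D3:**
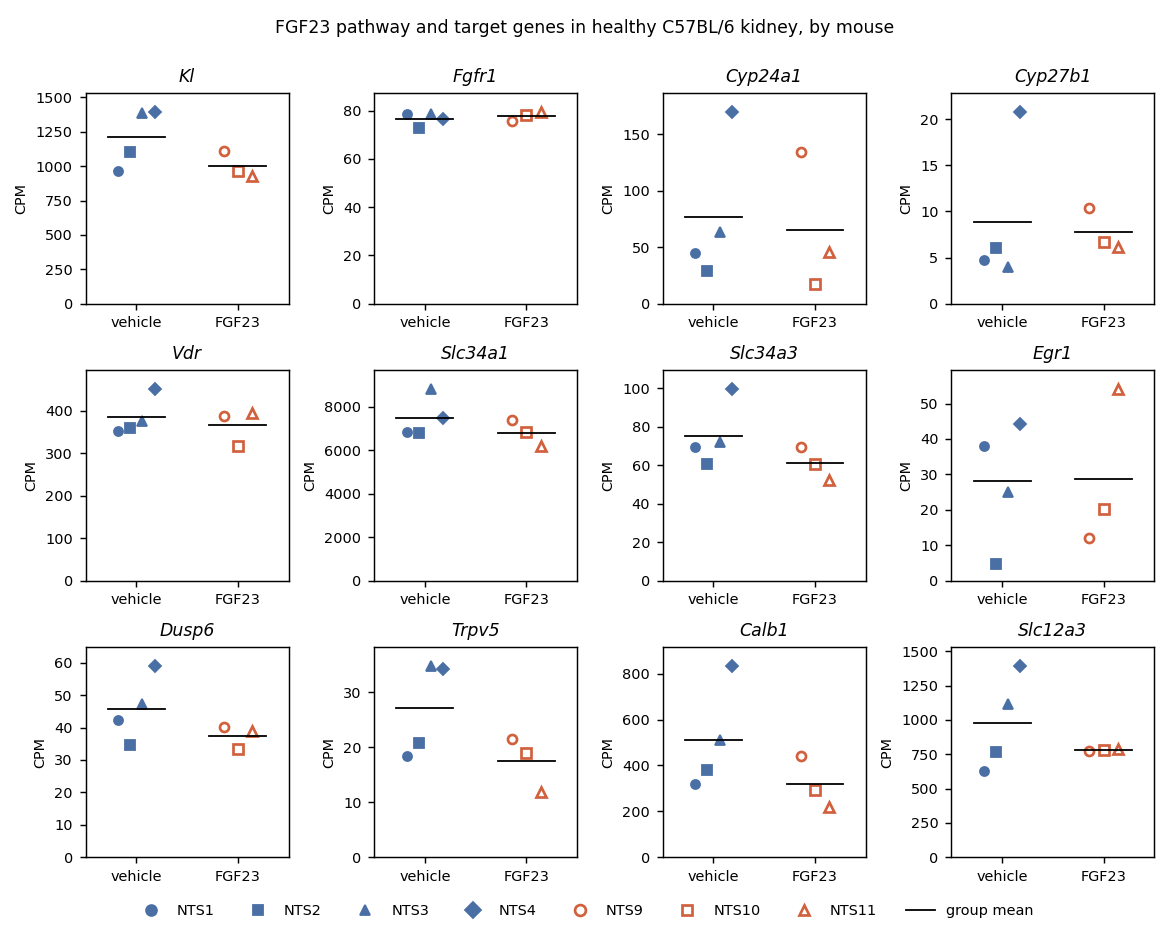
CPM on a linear axis from 0 for 12 genes of FGF23 signalling, vitamin D, phosphate, calcium and sodium handling in each healthy mouse, with the group mean as a line. Mouse NTS4 is highest for Cyp24a1 and Cyp27b1, Fgfr1 varies little, and the groups overlap in every panel.

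Calcium genes of the distal tubule were lower in the FGF23-treated mice before adjustment. Trpv5, the apical calcium channel of the distal tubule, was at 18.5, 20.9, 34.8 and 34.3 CPM with vehicle and at 21.6, 18.99 and 11.9 CPM with FGF23 (log2 fold change -0.62, -1.18 to -0.06, unadjusted p = 0.0317). Slc8a1, the sodium-calcium exchanger of the basolateral membrane, was at 181, 188, 296 and 419 CPM with vehicle and at 186, 190 and 138 CPM with FGF23 (-0.66, -1.31 to -0.01, unadjusted p = 0.0456). Calb1, the calcium-binding protein calbindin-D28k, was at 320, 381, 512 and 833 CPM with vehicle and at 443, 293 and 219 CPM with FGF23 (-0.68, -1.37 to 0.00, unadjusted p = 0.0513). NTS3 and NTS4 were the highest mice for Trpv5, Slc8a1 and Calb1, and NTS11 was the lowest, whereas the remaining mice overlapped. The 6 markers of the distal convoluted tubule, which include Calb1 and Trpv5 themselves, had means of 6.35, 6.49, 7.09 and 7.33 log2 CPM with vehicle and 6.68, 6.39 and 6.17 with FGF23, and their part in the result was not tested. With the inner medulla and urothelium covariate the log2 fold changes were -0.28 for Trpv5, -0.28 for Slc8a1 and -0.40 for Calb1. In the whole list of calcium and magnesium transport, 16 of 19 tested genes were lower with a median of -0.16, and 2 of them had an unadjusted p below 0.05 (2.55% of all genes were lower at that threshold).

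Sodium transport genes were mostly slightly lower. Of 24 genes, 20 were lower with a median of -0.17, 0 had an unadjusted p below 0.05, 4 were lower in every FGF23-treated mouse than in any control (5.01% of all genes), and all 24 intervals lay between -1 and 1. The mean log2 CPM of the list was 7.58, 7.54, 7.62 and 7.69 with vehicle and 7.49, 7.52 and 7.38 with FGF23, and so was lower in each FGF23-treated mouse than in any control. Slc12a3, the thiazide-sensitive sodium-chloride cotransporter that FGF23 is known to act on, was at 629, 764, 1115 and 1392 CPM with vehicle and at 771, 780 and 785 CPM with FGF23 (log2 fold change -0.33, -0.85 to 0.20). Its FGF23-treated mice lay within the range of the controls.

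Of the 11 tested genes of the renin-angiotensin list, 7 were lower, with a median of -0.12, and 2 of them had an unadjusted p below 0.05 (2.55% of all genes were lower at that threshold). Atp6ap2, the prorenin receptor and an accessory subunit of the vacuolar proton pump, was at 112, 109, 122 and 125 CPM with vehicle and at 99.0, 100 and 89.2 CPM with FGF23. These groups did not overlap (log2 fold change -0.28, -0.47 to -0.09, unadjusted p = 0.00615). Ren1, the renin gene, was at 50.3, 60.1, 134 and 119 CPM with vehicle and at 77.8, 27.8 and 62.4 CPM with FGF23 (-0.70, -1.69 to 0.29).

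The genes with the smallest p-values among those higher with FGF23 were expressed at low levels and were mostly led by NTS10. Vsig2 (chr9:37539255-37544205, plus strand) had the smallest p of all genes, at 0.679, 0.428, 0.399 and 0.530 CPM with vehicle and at 0.986, 2.26 and 1.67 CPM with FGF23, which were 8 to 12 reads against 21 to 47 reads. The groups did not overlap (log2 fold change 1.68, 0.94 to 2.43, unadjusted p = 0.000261), and the value without NTS10 and NTS11 was 0.95. With those mice left out the FGF23 group is the single mouse NTS9, which is assumed to vary like the other groups, so values from that fit are given as a description. Gabrp, a subunit of the GABA-A receptor, had 0, 1, 0 and 0 reads with vehicle and 3, 25 and 9 reads with FGF23, and no fold is given for so few reads. Aldh1a3, a retinoic acid-synthesizing enzyme, was at 1.13 to 2.30 CPM with vehicle and at 2.72, 67.0 and 1.67 CPM with FGF23. Its log2 fold change of 3.94 was thus set by NTS10, and without that mouse it was 0.52.

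Igfbp2, which binds insulin-like growth factors, was likewise at 0.340 to 0.861 CPM with vehicle and at 0.704, 14.4 and 2.02 CPM with FGF23 (log2 fold change 3.38, and 1.25 without NTS10). Grin2d, a subunit of the NMDA receptor, had 4 to 7 reads with vehicle and 12, 16 and 14 reads with FGF23 (log2 fold change 1.33, 0.65 to 2.01). Il2ra, the alpha chain of the interleukin-2 receptor, had 2 to 5 reads with vehicle and 11, 11 and 6 reads with FGF23 (1.56, 0.73 to 2.39). The last 2 genes were higher in NTS9 too, but both were picked for a small p and rest on few reads. The part of the tissue mix in them was not tested.

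Krt19, a keratin of duct epithelia and urothelium that also marks injured tubules, was at 1.70, 0.475, 1.45 and 1.06 CPM with vehicle and at 1.13, 7.93 and 6.06 CPM with FGF23. It followed the same mice as Krt5 and Upk1b. The log2 fold change was 2.10 (1.01 to 3.19, unadjusted p = 0.000977). Without NTS9 it became the only gene called in any fit that left out 1 mouse (adjusted p = 0.039, edgeR), and without NTS10 and NTS11 the log2 fold change was -0.04. Over the 284 genes higher at an unadjusted p below 0.05, the highest mouse was NTS10 for 160 (56.3%), NTS11 for 84 (29.6%) and NTS9 for 39 (13.7%). These genes were selected for being higher with FGF23, so that an FGF23-treated mouse is the highest almost by construction, and the shares are a description only. With the inner medulla and urothelium covariate, 152 genes were higher and 196 lower at that threshold.

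The genes with the smallest p-values among those lower with FGF23 were expressed at higher levels and differed by less. Tmem65, which encodes a mitochondrial inner membrane protein (chr15:58782269-58823638, minus strand), was at 53.5, 48.3, 55.1 and 54.5 CPM with vehicle and at 40.6, 43.6 and 38.05 CPM with FGF23. All 3 FGF23-treated mice were below every control (log2 fold change -0.37, -0.55 to -0.20, unadjusted p = 0.000390). Vma21, an assembly factor of the vacuolar proton pump, was at 40.9, 42.5, 41.8 and 42.4 CPM with vehicle and at 34.4, 31.3 and 29.2 CPM with FGF23 (-0.40, -0.62 to -0.19). The same separation held for Cfl2, an actin-severing protein (-0.28, -0.42 to -0.13), Ppp1cb, a catalytic subunit of protein phosphatase 1 (-0.30, -0.46 to -0.14), Pggt1b, a subunit of an enzyme that attaches lipid anchors to proteins (-0.26, -0.39 to -0.12), and Nucks1, a nuclear DNA-binding protein (-0.31, -0.47 to -0.14). In fits that left out 1 mouse, the log2 fold change of Tmem65 stayed between -0.43 and -0.31 and that of Vma21 between -0.44 and -0.34. These genes were selected for a small p in these same mice, so that separated groups and steady values are favoured by the selection. Over all genes, 5.01% were lower without overlap. Gm11407 was at 2.83 to 3.33 CPM with vehicle and at 1.18 to 1.78 CPM with FGF23 (-1.03, -1.50 to -0.55). It is a predicted gene whose reads the counting may share with a related copy.

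Some mitochondrially encoded transcripts were among the lower genes. The respiratory complex I subunit mt-Nd6 (chrM:13552-14070, minus strand) was at 108, 139, 126 and 135 CPM with vehicle and at 80.7, 50.6 and 70.8 CPM with FGF23 (log2 fold change -0.91, -1.34 to -0.49, unadjusted p = 0.000426). It is encoded on the strand opposite the other protein genes of the mitochondrial genome. It overlaps its neighbour mt-Nd5 (chrM:11742-13565, plus strand) at the edge only. Whether the counting used strand is not given in the sources used here, so reads from the opposite strand may be among its counts. Chosen after its values were seen, mt-Nd5 was at 15372 to 20608 CPM with vehicle and at 12875 to 14508 CPM with FGF23 (-0.38, -0.66 to -0.10), whereas mt-Co1 overlapped, at 35404 to 39667 CPM against 30895 to 36418 CPM (-0.17, -0.45 to 0.11). The nuclear genes of oxidative phosphorylation differed little. Of 31, 26 were lower with a median of -0.05, all 31 intervals lay between -1 and 1, and 0 had an unadjusted p below 0.05. With mitochondrially encoded genes left out before scaling, 332 genes were higher and 317 lower at an unadjusted p below 0.05.

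Kidney injury genes were on balance higher, in part with urothelial genes. Of the 25 genes of the injury and repair list, 19 were higher with a median of 0.21, and 3 had an unadjusted p below 0.05 (1.79% of all genes were higher at that threshold). These were Krt19, the epithelial keratin Krt18 and the matrix proteoglycan gene Vcan. Krt18 was at 10.7 to 11.8 CPM with vehicle and at 9.72, 33.4 and 14.8 CPM with FGF23 (log2 fold change 0.78, and 0.11 without NTS10). With the inner medulla and urothelium covariate the list median was 0.07. Havcr1, which encodes the injury marker KIM-1, was at 1.92, 2.00, 0.799 and 2.52 CPM with vehicle and at 7.89, 1.25 and 3.27 CPM with FGF23 (log2 fold change 1.24, -0.07 to 2.54). NTS9 was the highest mouse, and without it the value was 0.30. Lcn2, which encodes the injury marker NGAL, was at 0.749 to 1.53 CPM with vehicle and at 1.08, 3.27 and 1.67 CPM with FGF23 (0.97, -0.98 to 2.92, and 0.37 without NTS10). For both markers the groups overlapped.

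Smooth muscle genes of the fibrosis list were higher in every FGF23-treated mouse. Acta2, smooth muscle actin and chosen here after its values were seen (chr19:34241090-34255590, minus strand), was at 26.9, 30.2, 33.4 and 27.56 CPM with vehicle and at 38.4, 43.7 and 42.4 CPM with FGF23 (log2 fold change 0.49, 0.20 to 0.78, unadjusted p = 0.00289). Tagln, an actin-binding protein of smooth muscle and myofibroblasts, was at 25.8, 25.7, 29.5 and 22.1 CPM with vehicle and at 33.1, 33.5 and 32.5 CPM with FGF23 (0.36, 0.15 to 0.56, unadjusted p = 0.00237). The groups did not overlap for either gene, and in fits that left out 1 mouse the values stayed between 0.45 and 0.58 for Acta2 and between 0.31 and 0.45 for Tagln. Both were picked by their values in these same mice, and 2.30% of all genes were higher without overlap. Both are themselves among the 5 smooth muscle markers whose mean was higher in all FGF23-treated mice. Of the other 3, Myh11 and Des overlapped between groups, and the part of vessel content in this result was not tested. Lama2, a laminin chain of basement membranes, was at 28.1, 25.1, 28.2 and 23.7 CPM with vehicle and at 17.5, 24.1 and 20.6 CPM with FGF23 (-0.34, -0.60 to -0.09). Over the 35 genes of the fibrosis list, 16 were higher and 19 lower with a median of -0.01.

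Proliferation genes were lower in most cases without passing the test. Of 23 cell cycle genes, 21 were lower with a median of -0.47, 3 were lower without overlap between groups (5.01% of all genes), and 0 had an unadjusted p below 0.05. The mean log2 CPM of the list was 1.72, 1.68, 2.06 and 1.99 with vehicle and 1.72, 1.14 and 1.53 with FGF23, so that NTS9 lay with the controls. Top2a, a topoisomerase of dividing cells, was at 5.83, 5.42, 9.09 and 7.62 CPM with vehicle and at 5.63, 2.79 and 3.90 CPM with FGF23 (-0.76, -1.81 to 0.30). Mki67, chosen after its values were seen, was at 6.28 to 9.83 CPM with vehicle and at 3.703 to 7.23 CPM with FGF23 (-0.55, -1.63 to 0.53). The fit also held the anti-GBM mice, in which Top2a was at 25.4 ± 18.1 CPM with vehicle (SD, n = 4). Their spread is part of these p-values and intervals. The list median was -0.27 without NTS10 and -0.18 without NTS10 and NTS11.

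Of 17 genes of erythroid cells, heme and iron, 15 were lower with a median of -0.39, which was -0.16 without NTS4, and 3 of them had an unadjusted p below 0.05 (2.55% of all genes were lower at that threshold). Alas1, the first enzyme of heme synthesis, was at 189, 216, 276 and 246 CPM with vehicle and at 215, 138 and 142 CPM with FGF23 (log2 fold change -0.49, -0.87 to -0.11, unadjusted p = 0.0147). Tfrc, the transferrin receptor and chosen after its values were seen, was at 73.5, 124, 108 and 91.2 CPM with vehicle and at 83.7, 64.5 and 57.8 CPM with FGF23 (-0.53, -0.96 to -0.10). NTS10 and NTS11 were below every control for both genes and NTS9 was not. Slc40a1, the iron exporter ferroportin, was lower in all 3, at 67.8, 71.2 and 60.3 CPM against 75.5 to 91.4 CPM with vehicle (-0.33, -0.66 to 0.01). Erythroid markers, which are also members of this list, averaged 4.78, 4.33, 4.56 and 5.74 log2 CPM with vehicle and 3.73, 4.48 and 4.73 with FGF23, and their part in the result was not tested. Without NTS10 and NTS11 the values were -0.11 for Alas1 and -0.25 for Tfrc.

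Of the 14 genes of the insulin-like growth factor axis, 7 were higher and 7 lower with a median of 0.01, and 3 of the higher and 2 of the lower had an unadjusted p below 0.05, beside 1.79% higher and 2.55% lower over all genes. Igf2r, which clears insulin-like growth factor 2, was at 150, 189, 184 and 239 CPM with vehicle and at 153, 147 and 159 CPM with FGF23 (log2 fold change -0.32, -0.59 to -0.05). Of 21 stress response genes, 9 were higher with a median of -0.05. Hspb1, a small heat shock protein, was at 5.55, 3.75, 4.64 and 4.44 CPM with vehicle and at 7.51, 8.99 and 5.64 CPM with FGF23 (0.70, 0.06 to 1.34), and Dnajb9, a chaperone of the endoplasmic reticulum, was at 49.8 to 54.4 CPM with vehicle and at 34.004 to 47.3 CPM with FGF23 (-0.33, -0.65 to -0.01). The groups did not overlap for Hspb1 or Dnajb9. Clock genes were evenly split in direction, with 9 of 18 higher and a median of -0.01, and 0 had an unadjusted p below 0.05. Without overlap between groups, 2 were higher (2.30% of all genes) and 2 lower (5.01%), namely Arntl, Cry1, Nr1d2 and Tef. The clock repressor Cry1 was lower in all FGF23-treated mice, at 2.49, 3.80 and 2.02 CPM against 3.99 to 5.49 CPM with vehicle (-0.74, -1.48 to 0.00).

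Metabolic lists lay near the median of all genes. Of 28 fatty acid oxidation genes 12 were higher with a median of -0.02, of 14 genes of glucose metabolism 3 were higher with a median of -0.06, and of 23 organic anion and cation transporters 10 were higher with a median of -0.03. No gene of these lists had an unadjusted p below 0.05. Of 14 glucocorticoid-induced genes, 4 were higher with a median of -0.10. Of 11 water channel and vasopressin genes, 7 were higher with a median of 0.07, which was -0.09 without NTS10, and Aqp4, a water channel of collecting duct principal cells, was at 25.7, 16.1, 1.398 and 12.3 CPM with vehicle and at 9.76, 96.5 and 30.5 CPM with FGF23 (1.72, -0.03 to 3.47, and 0.52 without NTS10). Aqp4 is also 1 of the inner medulla and urothelium markers. NTS10 was again the highest mouse. Complement, cytokine and acute phase lists had medians of 0.01, 0.05 and 0.05, with 11 of 20, 16 of 28 and 8 of 15 genes higher.

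**Figure D4:**
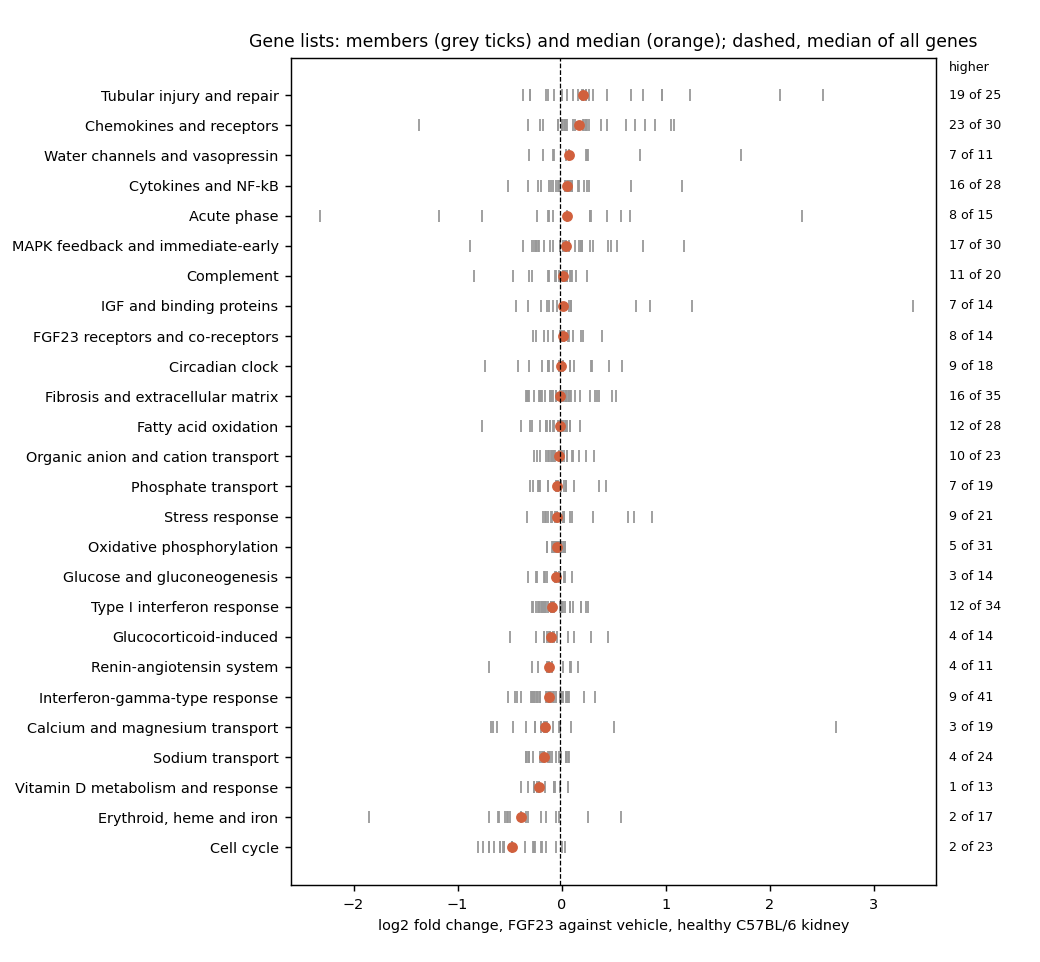
Log2 fold change of each tested member (grey ticks) and the median (orange) of 26 gene lists, ordered by median, with the median of all genes as a dashed line and the number of members above 0 at the right. Cell cycle and erythroid, heme and iron genes have the lowest medians, and tubular injury and chemokine genes the highest.

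Immune genes, like all 15859 genes tested, gave no called member in the healthy kidney. Of 41 interferon-gamma-type genes, 9 were higher and 32 lower with a median of -0.12, 0 had an unadjusted p below 0.05, and 36 intervals lay between -1 and 1. Irf1, a transcription factor that interferon-gamma induces, was at 19.1, 18.5, 24.3 and 26.7 CPM with vehicle and at 21.7, 20.6 and 20.1 CPM with FGF23 (log2 fold change -0.09, -0.41 to 0.24). Of 34 type I interferon genes, 12 were higher and 22 lower with a median of -0.09. Samd9l was the only one with an unadjusted p below 0.05 (2.55% of all genes were lower at that threshold). It was at 246, 249, 284 and 286 CPM with vehicle and at 234, 211 and 242 CPM with FGF23 (-0.22, -0.41 to -0.02). In this list 4 genes, Samd9l among them, were lower without overlap between groups (5.01% of all genes). Chemokines and their receptors leaned the other way, with 23 of 30 higher and a median of 0.17, but 0 had an unadjusted p below 0.05. Among them Cxcr3, a receptor on activated T cells, was at 0.283 to 0.795 CPM with vehicle and at 0.673 to 1.17 CPM with FGF23, and Ackr3, a scavenging chemokine receptor, was at 37.5 to 49.1 CPM with vehicle and at 31.3 to 35.6 CPM with FGF23. T and NK cell markers averaged -0.27 log2 CPM in both groups. Serpina3n, of the acute phase list, was at 0.113, 0.143, 1.80 and 0 CPM with vehicle and at 4.55, 2.12 and 1.32 CPM with FGF23 (2.31, 0.70 to 3.92, unadjusted p = 0.00802), and NTS3 lay above NTS11. Without NTS3 the value was 4.80 and without NTS9 1.70.

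The same 6 days of FGF23 gave another picture in the mice with anti-GBM disease. There 38 genes were called at an adjusted p below 0.05 (0.240%), 37 of them higher (0.233%, with 49.7% of all genes above 0). In the healthy mice, 32 of these 38 genes were lower and 6 higher with a median of -0.21, 2 had an unadjusted p below 0.05, and 35 had an interval between -1 and 1. Over all genes in the healthy mice, 46.0% were above 0, 4.34% had an unadjusted p below 0.05 and 83.8% had such an interval. The 2 comparisons use different mice. A test of the difference itself, anti-GBM minus healthy, called 5 genes at an adjusted p below 0.05 (0.0315%), with 1316 at an unadjusted p below 0.05 (8.30%). Among these were the interferon-inducible GTPase genes Tgtp1, Tgtp2 and Iigp1, and Cd274, which encodes PD-L1. Tgtp2 and Iigp1 were named after their values were seen, and reads may be shared between Tgtp1 and its near-identical neighbour Tgtp2.

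In healthy kidney Tgtp1 was at 3.90, 3.99, 6.64 and 9.47 CPM with vehicle and at 4.46, 3.75 and 4.95 CPM with FGF23 (log2 fold change -0.45, -1.07 to 0.18). In anti-GBM kidney the vehicle-treated mice held 4.32 ± 0.76 CPM (SD, n = 4) and the FGF23-treated mice 23.9 ± 6.1 CPM (SD, n = 3), and the difference between the 2 effects was 2.92 (adjusted p = 0.0357, edgeR). Cd274 was at 6.74 to 8.68 CPM with vehicle and at 6.01 to 7.42 CPM with FGF23 in healthy kidney, and the difference between the effects was 1.398 (adjusted p = 0.0357 by the same test). For Irf1 the difference was 1.33 and missed the threshold (adjusted p = 0.0533). The number called rests on few mice. When 1 of the 14 mice was left out it ranged from 0 to 14, and it was 0 in 11 of the 14 fits. Leaving out NTS16, an anti-GBM mouse given FGF23, gave 14 genes, and DESeq2 gave 48.

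A single injection gave no called gene in healthy BALB/c kidney either. Here 0 of 16020 genes had an adjusted p below 0.05 (0%, smallest 0.155), with 585 higher (3.65%) and 487 lower (3.04%) at an unadjusted p below 0.05, together 1072 (6.69%), and 51.1% of all genes above 0. DESeq2 called 16. Sex, strain, number of injections and experiment all differ from the 6-day comparison and cannot be told apart. A joint fit of the 15 healthy libraries found 0 of 16350 genes (0%) whose FGF23 effect differed between BALB/c and C57BL/6 mice (smallest adjusted p 0.428), with 1572 at an unadjusted p below 0.05 (9.61%), and DESeq2 called 16.

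Genes of mineral metabolism and renin were compared between the 2 healthy experiments. Cyp27b1 was at 14.24, 17.5, 21.02 and 13.9 CPM with vehicle and at 9.54, 5.11, 14.1 and 2.73 CPM with FGF23 in BALB/c mice, with a log2 fold change of -1.09 (-1.82 to -0.37, unadjusted p = 0.00542) beside -0.16 in C57BL/6 mice. The difference between the 2 effects was -0.94 (-2.50 to 0.61). Calb1 differed by 0.28 in BALB/c and -0.68 in C57BL/6 mice, and the difference was 0.95 (0.03 to 1.87, unadjusted p = 0.0436). Ren1 differed by 0.62 in BALB/c and -0.70 in C57BL/6 mice, and the difference was 1.31 (0.27 to 2.36, unadjusted p = 0.0173). Kl differed by 0.15 in BALB/c and -0.28 in C57BL/6 mice, with a difference of 0.41 (0.04 to 0.79). None of these differences passed adjustment. Interferon-gamma-type genes gave no called member in either healthy comparison, with 32 of 41 higher and a median of 0.06 in BALB/c mice.

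**Figure D5:**
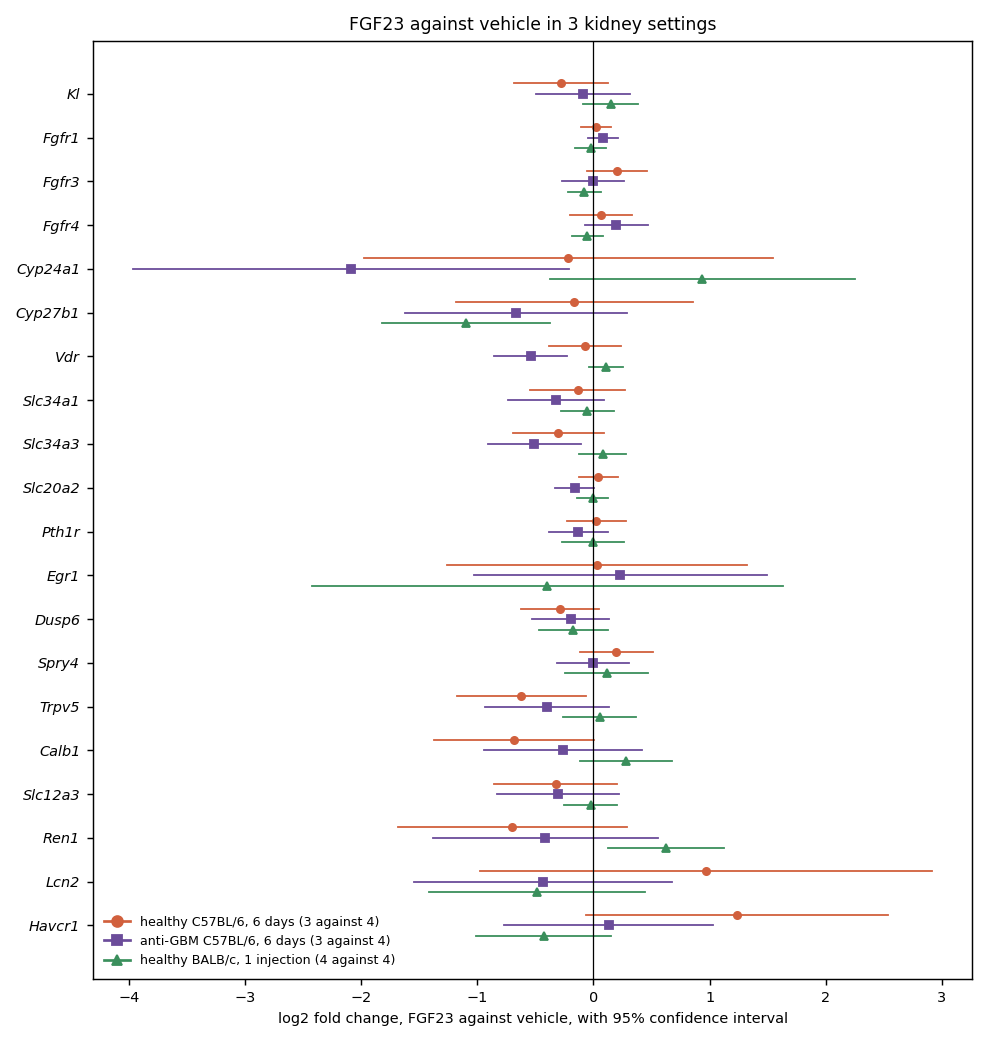
Log2 fold change of FGF23 against vehicle with its 95% confidence interval (x axis) for 20 genes of the FGF23 axis, sodium and calcium transport, angiotensin and injury, in healthy C57BL/6, anti-GBM C57BL/6 and healthy BALB/c kidney. The intervals for healthy C57BL/6 kidney include 0 for all 20 genes except Trpv5, which lies below it before adjustment.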

How the data were processed

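Bulk mRNA sequencing of kidney fragments from 7 healthy male C57BL/6 mice was analysed, with 7 anti-GBM and 16 BALB/c libraries for comparison. The BALB/c libraries came from 8 healthy mice and from mice with Adriamycin nephropathy given FGF23 (n = 4) or vehicle (n = 4). The Adriamycin mice entered only the fit of the 16 BALB/c libraries. Per the labels and the study's methods, the authors aligned reads to GRCm38 with STAR 2.7.9a and deposited raw read counts for 55487 Ensembl genes from featureCounts 1.5.1, after bcl2fastq 2.20.0 and FastQC 0.11.8. A stranded kit was used, and the strand setting and treatment of multi-mapping reads at counting are not given in the sources used here. A table of Ensembl identifiers named 55141 genes, and positions come from GENCODE for GRCm38.

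Columns were assigned to groups by mouse name. Values differed between mice by more than sampling noise. P-values measure the spread between the mice of each fit, so those of the healthy C57BL/6 comparison also carry the spread of the anti-GBM mice. Counts were scaled by TMM and tested across all genes with edgeR's quasi-likelihood test (filterByExpr, minimum count 10, Benjamini-Hochberg adjustment, threshold 0.05) in R 4.3.3 with edgeR 4.0.16 and limma 3.58.1. The 14 C57BL/6 libraries, the 16 BALB/c libraries and, for the difference between strains, the 15 healthy libraries were fitted together. DESeq2 1.42.0, the study's tool, was an alternative. The other alternatives were RLE scaling, no count filter, a robust fit, an added log2 fold change of 1, only the healthy libraries, each mouse left out, and a prior count of 0.5 instead of 2 for log2 CPM. Marker covariates, the fit without NTS10 and NTS11 and the fit without mitochondrially encoded genes were chosen after seeing the data. The test was checked on simulated counts.

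The comparison, the 26 gene lists and the 21 marker lists were chosen with earlier results of these data known. Named genes were a fixed set of FGF23 axis genes with Tgtp1, Irf1 and Cd274, the 8 higher and the 8 lower genes of smallest p, the members of each list of smallest p, and others said in the text to be chosen later. A few genes that this rule names are not reported here.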

Additional observations from a re-analysis of the deposited data

Results flagged for a closer look

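Among the 4 healthy vehicle-treated mice, 1 mouse was set apart from the other 3 in 4 of 91 levels examined. The rule asked for a gap to the next mouse above 0.829 of the range, and chance alone gives about 1 in 20. The flagged levels were Fgfr4 at 51.1 CPM in NTS3, Cyp27b1 at 20.7 CPM in NTS4, Serpina3n at 1.80 CPM in NTS3 and Gabrp at 0.0475 CPM in NTS2, the last from a single read. A flag can mark a small difference, as Fgfr4 was at 45.2 to 45.9 CPM in the other 3. The values of the other mice for Cyp27b1 and Serpina3n stand in the report.

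The effect of FGF23 differed between anti-GBM and healthy kidney for 5 genes by the test of the difference itself. The log2 difference was 2.92 for Tgtp1, 2.39 for Iigp1, 2.36 for Tgtp2 and 1.398 for Cd274. These 4 had a log2 fold change below 0 in the healthy mice and above 1 in the anti-GBM mice. The test subtracts the healthy effect, so that a value below 0 there is favoured by the selection. In the healthy mice their unadjusted p was 0.148 to 0.380 (edgeR).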

How the results depend on the processing

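The absence of called genes in healthy C57BL/6 kidney held under RLE, no count filter, a robust fit, DESeq2, the added fold-change threshold, only the healthy libraries, the marker covariates and the fit without mitochondrially encoded genes. The fit without NTS10 and NTS11 leaves NTS9 as the only FGF23-treated healthy mouse, assumed to vary like the other groups, and its count of 0 calls shows nothing about stability. With 1 mouse left out the number ranged from 0 to 1, with 1 (Krt19) without NTS9. The genes whose effect differed from anti-GBM kidney numbered 5, and 3 under RLE, 29 without a filter, 48 under DESeq2 and 0 to 14 with 1 mouse left out (1 without NTS2). In BALB/c mice the number of 0 became 1 without a filter, 16 under DESeq2 and 0 to 4 with 1 mouse left out (4 without Ad12). For the difference between the healthy comparisons it became 2 without a filter, 16 under DESeq2 and 0 to 1 with 1 mouse left out (1 without Ad9). The cause of these changes was not tested. No paired analysis was possible because the columns carry no replicate number of the labels.

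No gene listed here was called. With 1 mouse left out, log2 fold changes ranged from -0.77 to 0.44 for Egr1 (-0.30 without NTS2), -1.27 to 0.53 for Cyp24a1 (0.24 without NTS10), -0.40 to 0.67 for Cyp27b1, -0.11 to 0.032 for Vdr (0.024 without NTS10), -0.15 to 0.032 for Irf1, -0.050 to 0.14 for Pth1r, -0.0082 to 0.13 for Fgfr4 and -3.96 to 2.72 for Adipoq. With the inner medulla and urothelium covariate the sign turned for Fgfr1 (-0.013), Cyp24a1 (0.53), Cyp27b1 (0.13), Vdr (0.10), Slc34a1 (0.061), Egr1 (-0.65), Krt5 (-0.26, itself a marker in that covariate) and Tgtp2 (0.066). With adipocyte markers added these were -0.016, 1.13, 0.59, 0.17, 0.052, -0.20, -0.27 and 0.0049, and Cd274 was 0.042. Without NTS10 and NTS11 the values were -0.022 for Fgfr1, -0.076 for Fgfr2, 0.81 for Cyp24a1, 0.24 for Cyp27b1, 0.011 for Vdr, -1.21 for Egr1, -0.044 for Krt19, -0.21 for Krt18, -0.51 for Aqp4, -0.21 for Upk1b, -4.10 for Krt5 and 0.16 for Tgtp2. The difference in lymph node markers, FGF23 minus vehicle, was -0.56 log2 CPM and -1.02 with a prior count of 0.5. Depth limited genes at a few reads per mouse, such as Gabrp, Grin2d and Il2ra.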
